A study of Rattus norvegicus with 11 samples.

Results

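Neuropeptide genes that mark cortical interneurons were followed in rat medial prefrontal cortex after heroin taking, abstinence and an extinction session. The 8 genes were Sst (somatostatin), Vip (vasoactive intestinal polypeptide), Cck (cholecystokinin), Tac1 (the precursor of substance P and neurokinin A), Nts (neurotensin), Cort (cortistatin), Adcyap1 (the peptide PACAP) and Gal (galanin). They were found as the non-control probes that carry one of these names, 11 of 41012 on each array. Names of exactly this form covered 7 of the 8 genes with 9 probes. Neurotensin had 2 probes under the older name Nts_predicted, which the array describes as neurotensin, and these were included. RNA came from 6 male rats that self-administered heroin through a jugular catheter by licking a spout in daily sessions (heroin replicates 1 to 6) and 5 male control rats that were yoked to heroin rats and infused with saline (saline replicates 2 to 6). All were 4 months old and spent 14 days in enforced abstinence. They were then returned to the chambers for an extinction session without drug and killed directly afterwards, so both groups carry the session itself and the yoked rats lack the heroin and its earning together. The strain is not given in the labels, and 1 array was hybridised per rat.

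Inhibitory interneurons of the cortex are commonly sorted by the peptide they make along with GABA. Somatostatin cells reach the dendrites of pyramidal neurons, VIP cells mostly inhibit other interneurons, and cholecystokinin marks a class of basket cells. Cortistatin is closely related to somatostatin and binds the same receptors, and Tac1 is made by some interneurons. The name of the set is not exclusive: Cck and Adcyap1 are also made by pyramidal neurons, and Nts and Gal are known chiefly from subcortical neurons. In pieces of tissue, fewer cells of a type and less RNA per cell cannot be told apart.

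Each array read these genes with probes of 60 bases. The probes below are those of the gene that differed most and of the genes whose relation across rats is described, written 5′ to 3′ as on the array, and capitals mark the longest run that probes of 2 different member genes share.

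Vip: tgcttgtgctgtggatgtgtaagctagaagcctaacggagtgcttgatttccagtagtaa
Sst: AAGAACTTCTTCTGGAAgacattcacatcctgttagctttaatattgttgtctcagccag
Cort: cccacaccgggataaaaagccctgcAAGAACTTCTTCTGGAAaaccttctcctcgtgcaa
Tac1: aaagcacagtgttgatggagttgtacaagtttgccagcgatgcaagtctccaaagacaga
Adcyap1: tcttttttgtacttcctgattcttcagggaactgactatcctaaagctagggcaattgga

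The run of 17 bases joins Sst and Cort, and it lies in the part of both messages that codes for the core the peptides have in common. With the probes aligned at that run, 28 of 35 overlapping bases were identical (80.0%). No other pair of member genes shared a run longer than 8 bases. Whether Cort RNA binds the Sst probe, or Sst RNA the Cort probe, was not tested.

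By the positions the array files carry (build rn3), the Vip probe lies at chr1:36372337-36372396 and the Sst probe at chr11:79183616-79183675, both on the plus strand. The Cort probe lies at chr5:166209249-166209308 on the minus strand and the Tac1 probe at chr4:32775851-32775909 on the plus strand. The Cck probe (chr8:126512566-126512625) and the Gal probe (chr1:206089883-206089942) are on the minus strand. The Nts probes are at chr7:40495169-40495228 and chr7:40495070-40495129, also on the minus strand. The 3 Adcyap1 probes lie on sequence of chromosome 9 that the build leaves unplaced, the brightest from 1059886 to 1059945. The position of a probe within exons or untranslated regions was not analysed here.

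The arrays were single-colour, with Cy3-labelled RNA, and a level is given here in array medians, the signal divided by the 50th percentile of all non-control probes on that array. The median signal was 42.7 to 78.3 on heroin arrays and 58.0 to 83.2 on saline arrays, and 28185 to 33209 and 30098 to 33835 probes were detected, meaning that the scanner software scored them well above background. Heroin replicate 6 had the lowest median signal and the fewest detected probes. Detection on all 11 arrays left 25555 probes for testing. Two-sided limma tests were read with the pair of thresholds of the study's methods, that is, a difference of 1.4-fold or more (0.485 on the log2 scale) whose unadjusted p is under 0.02, and Benjamini-Hochberg adjusted p over all tested probes stands beside them. No probe of the 25555 had an adjusted limma p under 0.05, with a smallest value of 0.263, and 4729 had an unadjusted one under 0.05. The median tested probe was 0.18 higher in heroin rats on the log2 scale, but 0.01 higher after quantile normalization and at -0.03 with the 75th percentile in place of the 50th. Differences of single genes are therefore read beside that shift, and for Nts, which was not tested, with the 50th percentile only. In the headers the array barcode ended in one digit on every heroin array and in another on every saline array. What the digit marks is not stated, and it cannot be told apart from the group. Heroin and saline arrays of the same number (2 to 6) shared a scan time.

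Of the 7 peptide genes detected on all arrays, Vip was the one past both thresholds, 1 of 7. Nts was not detected on all arrays and was not in the test. A rise past both thresholds was found for 1.79% of all tested probes and a fall for 0.923%, and these shares turned with the scaling: 66.0% of all calls were rises with the 50th percentile, 47.7% after quantile normalization and 4.24% with the 75th percentile. After quantile normalization 0.853% of probes were called higher and no member was. The median change of the 7 genes was 0.21, close to the 0.18 of all tested probes, and -0.03 after quantile normalization, where the median of all probes was 0.01. Higher means in heroin rats were found for 6 of the 7 genes with the 50th percentile and for 3 after quantile normalization. Of all tested probes 78.7% and 53.2% were higher in these settings.

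**Figure D1:**
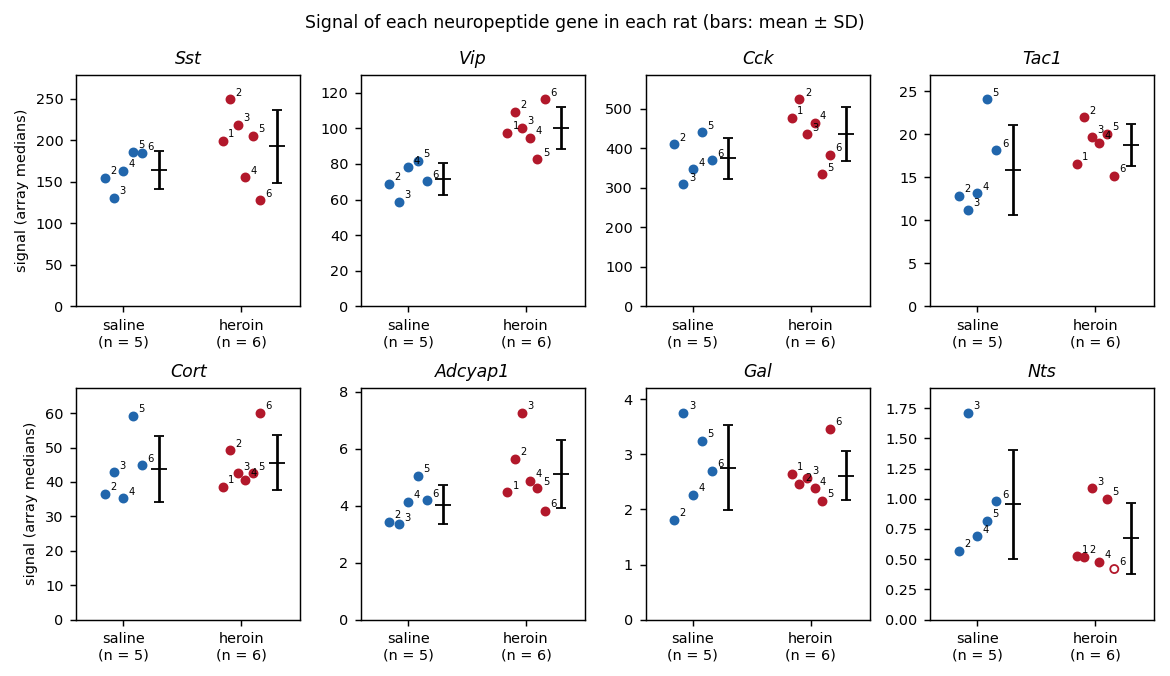
Signal of the brightest probe of each peptide gene in every rat, in array medians on a linear axis from 0; numbers are replicate numbers, bars are the mean and SD, and an open circle is an array on which the probe was not well above background. The 6 heroin rats lie above the 5 saline rats for Vip, while the groups overlap in the other 7 panels.

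Vip, read by 1 spot per array, had a level of 68.7, 58.7, 78.0, 81.8 and 70.2 array medians in saline replicates 2 to 6. In heroin rats it ranged from 82.6 through a median of 98.9 to 116.2. All 6 heroin rats were above all 5 saline rats, but the lowest heroin rat (replicate 5) and the highest saline rat (replicate 5) were almost level. Such a lack of overlap with heroin above was found for 1.67% of all tested probes. The heroin mean was 100.1 ± 11.7 (SD, n = 6) and the saline mean 71.5 ± 8.99 (SD, n = 5). On the log2 scale the difference was 0.49, with a standard error of 0.13 and a 95% interval from 0.21 to 0.77. Limma gave an unadjusted p of 0.00207 and an adjusted p of 0.263. The exact permutation test, two-sided, gave p = 0.00433, and it cannot go below 0.00216 with groups of 6 and 5. The difference was 1.401-fold, barely past the threshold. It was 0.27 on the log2 scale with the 75th percentile (limma adjusted p = 0.472). After quantile normalization it was 0.25 (limma adjusted p = 0.615, exact permutation p = 0.00649), and the groups then overlapped. Within the 5 shared scan times the heroin array was higher by 0.67, 0.77, 0.28, 0.01 and 0.73 in replicates 2 to 6, and with the replicate number as a block the difference was 0.49 and still past both thresholds (limma adjusted p = 0.454). When 1 rat was left out the difference was 0.42 to 0.54 and its unadjusted limma p was under 0.02 each time, but it was short of 1.4-fold without heroin replicate 2, 3 or 6 or saline replicate 2, 3 or 6. Across the 11 rats Vip was lower where more probes were detected, with r = -0.70 (permutation p = 0.0184, adjusted over 7 genes p = 0.129), rho = -0.72 (permutation p = 0.0165, adjusted p = 0.116) and r = -0.81 without the 2 rats of most extreme detection. After quantile normalization r was -0.41. Whether array quality has a part in the Vip difference was not tested.

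The window around the annotated start of Vip is shown, with that of Sst for comparison. They were picked because transcription of both genes is known to respond to cyclic AMP through a CRE element. The windows are RefSeq sequence of build GRCr8, from 250 bases before to 50 after the annotated start, for Vip chr1:44470230-44470529 and for Sst chr11:90461296-90461595, both on the plus strand. Capitals mark TGACG or its reverse complement, the core of the CRE palindrome TGACGTCA.

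Vip: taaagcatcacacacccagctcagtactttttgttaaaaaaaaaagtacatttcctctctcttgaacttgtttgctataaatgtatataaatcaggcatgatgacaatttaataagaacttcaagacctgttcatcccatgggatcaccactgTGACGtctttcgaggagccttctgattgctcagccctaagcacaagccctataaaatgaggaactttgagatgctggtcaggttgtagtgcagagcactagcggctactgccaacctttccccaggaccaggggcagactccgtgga
Sst: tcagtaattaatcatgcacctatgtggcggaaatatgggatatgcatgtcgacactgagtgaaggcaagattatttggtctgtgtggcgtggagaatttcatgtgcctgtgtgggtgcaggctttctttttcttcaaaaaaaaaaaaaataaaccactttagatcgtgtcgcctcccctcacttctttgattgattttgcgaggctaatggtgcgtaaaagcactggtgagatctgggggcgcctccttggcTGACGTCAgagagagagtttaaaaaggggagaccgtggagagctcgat

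The Sst window held the whole palindrome, in which the cores of both strands overlap, and the Vip window 1 core. Counted from the annotated start, the Vip core began at -97. The Sst palindrome began at 2, so it lay after the start and not upstream of it. Windows were listed for 7 of the 8 genes, all but Cck. The core was present in 6 of these 7 (all but Adcyap1), against 21.2% of all 33469 windows of 300 bases, and the palindrome in 1 of 7, against 1.83%. These are matches of letters and say nothing of binding in these rats.

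Sst was read by 10 spots per array, whose coefficient of variation within an array had a median of 3.15%. The level was 155, 131, 163, 186 and 184 array medians in saline replicates 2 to 6. Heroin rats ran from 128 through 203 to 249, so the lowest of all 11 rats was heroin replicate 6 and the highest heroin replicate 2. The log2 change was 0.21 with a 95% interval from -0.16 to 0.58 (limma adjusted p = 0.443, exact permutation p = 0.271), and the sign turned after quantile normalization (-0.03). Spread among heroin rats was 22.8% of their mean, several times that between spots.

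Cort, from 1 spot, gave 36.5, 42.8, 35.3, 59.3 and 44.9 array medians in saline rats and 38.6 to 60.1 in heroin rats, with a median of 42.5. The highest saline rat (replicate 5) and the highest heroin rat (replicate 6) stood level at the top. Its log2 change was 0.07, with an interval from -0.27 to 0.41 (limma adjusted p = 0.786, exact permutation p = 0.654), and -0.19 after quantile normalization. Changes of 1.4-fold in either direction are outside the first interval. The interval after quantile normalization, from -0.495 to 0.125, includes a fall of 1.4-fold.

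Cck had saline levels of 409.7, 308.5, 347, 440.0 and 369 array medians and heroin levels from 334 through 449.9 to 523. Heroin replicate 5 was below 4 of the 5 saline rats, and heroin replicate 2 was the highest of all. The log2 change of 0.21 (interval -0.09 to 0.52, limma adjusted p = 0.365, exact permutation p = 0.139) lay 0.03 above the median of all tested probes, and it was -0.03 after quantile normalization. Signal was not saturated on any array.

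Tac1 varied widely among the saline rats, in which replicates 2, 3 and 4 had 12.8, 11.2 and 13.1 array medians, and replicates 5 and 6 had 24.0 and 18.1. The heroin rats lay between 15.1 and 22.0, with a median of 19.3. All 6 were above the 3 low saline rats and below the highest. Saline rats thus spread by 33.0% of their mean and heroin rats by 13.3%. The log2 change was 0.29 (interval -0.11 to 0.68, limma adjusted p = 0.354, exact permutation p = 0.186), or 0.04 after quantile normalization.

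Adcyap1 was read by 3 probes, which had higher means in heroin rats by 0.33, 0.21 and 0.31 on the log2 scale with the 50th percentile (exact permutation p = 0.0887, 0.132 and 0.303, limma adjusted p = 0.282, 0.362 and 0.429). Quantile normalization left 0.12, 0.01 and 0.26, and with the 75th percentile the second probe was at -0.0040. By the brightest probe, saline rats had 3.43, 3.36, 4.14, 5.05 and 4.20 array medians. Heroin rats ranged from 3.83 through 4.75 to 7.27, highest in replicate 3. No probe was past both thresholds, and the groups overlapped in each.

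Gal, a peptide that inhibits release from many neurons, gave 1.82, 3.76, 2.27, 3.24 and 2.70 array medians in saline rats and 2.16 to 3.47 in heroin rats, with a median of 2.51. Saline replicates 2 and 3 held the extremes of all 11 rats. The log2 change was -0.05 (interval -0.44 to 0.35, limma adjusted p = 0.880, exact permutation p = 0.810) and -0.20 after quantile normalization.

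Nts was near the limit of detection. The brighter of its probes was well above background on 10 of 11 arrays, with heroin replicate 6 the exception, and the other on 6, namely 2 of 6 heroin and 4 of 5 saline arrays. On the brighter probe saline rats had 0.568, 1.71, 0.688, 0.817 and 0.980 array medians, and heroin rats 0.419 to 1.08 with a median of 0.523. Both probes put saline replicate 3 highest. Without a detection filter the log2 changes were -0.50 and -0.61 (exact permutation p = 0.199 and 0.489). In that fit 30.5% of all 1559 calls past both thresholds were rises, against 66.0% among the tested probes. The median shift of 0.18 was taken over the tested probes, which leave out Nts.

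**Figure D2:**
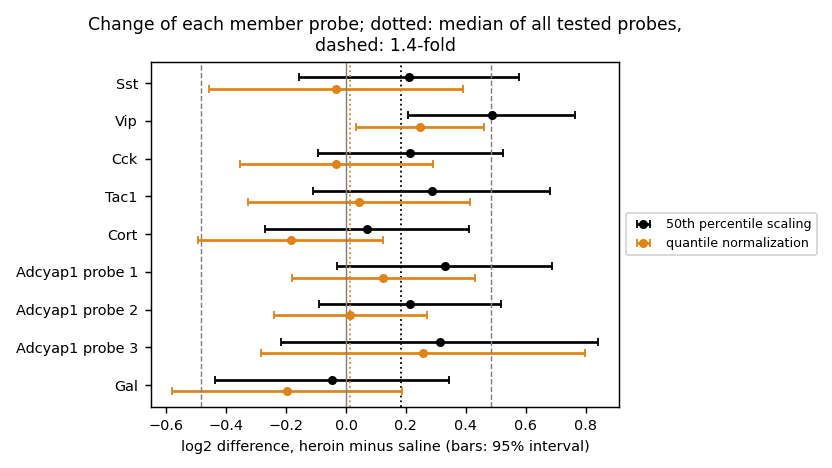
Log2 difference between heroin and saline rats for the 9 tested member probes, with 95% intervals, under 50th percentile scaling (black) and quantile normalization (orange). Dotted lines are the medians of all tested probes (0.18 and 0.01) and dashed lines 1.4-fold; the Vip interval lies above 0 under both, and the other intervals include 0.

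The relation between the peptides across rats was examined over the 21 pairs of the 7 genes, 1 probe a gene. The most alike were Tac1 and Adcyap1, with r = 0.77 (permutation p = 0.00442) and rho = 0.90. Sst and Adcyap1 followed with r = 0.76 (permutation p = 0.00616) and rho = 0.83, and Sst and Tac1 with r = 0.72 (permutation p = 0.0131) and rho = 0.75. For each of Sst, Tac1 and Adcyap1, saline replicates 2 and 3 and heroin replicate 6 were among the 4 lowest rats, and heroin replicates 2 and 3 among the 4 highest. No Pearson p was under 0.05 after adjustment over the 21 pairs (smallest 0.0647), and 5 were unadjusted. By rank, the pairs Tac1 with Adcyap1 (adjusted permutation p = 0.00798) and Sst with Adcyap1 (adjusted permutation p = 0.0315) did pass.

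Without the 2 rats farthest from the median of the first gene, r was 0.59 for Tac1 and Adcyap1, 0.68 for Sst and Adcyap1 and 0.62 for Sst and Tac1. As deviations from each group's mean the 3 values were 0.71, 0.72 and 0.67, and after quantile normalization 0.67, 0.73 and 0.69. All pairs of tested probes share these arrays and their depth of signal, and their median r was 0.19, with 16.3% of pairs above 0.6. Among the member pairs the median was 0.48, and 5 of 21 (23.8%) were above 0.6. An r at least as high as that of Tac1 and Adcyap1 was reached by 5.17% of all probe pairs. After quantile normalization, 6 of 21 member pairs (28.6%) were above 0.6 against 6.97% of all pairs, and none had an adjusted p under 0.05 (6 unadjusted).

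**Figure D3:**
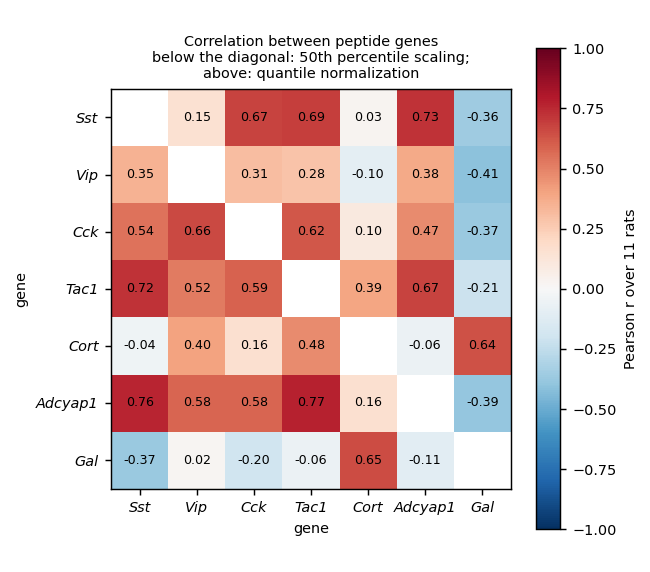
Pearson r between the 7 peptide genes over 11 rats, below the diagonal with 50th percentile scaling and above it after quantile normalization. Sst, Tac1 and Adcyap1 are joined by r of 0.67 to 0.77 under both, and Gal has r below 0.1 with each of the other genes but Cort.

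After quantile normalization Sst followed the log2 median signal of the array with r = 0.90 (permutation p = 0.000370, adjusted over 14 relations p = 0.00518) and rho = 0.75 (permutation p = 0.00998, adjusted p = 0.0992), and r was 0.74 without the 2 most extreme arrays. For Tac1, Adcyap1 and Cck the same r was 0.68, 0.66 and 0.61 (adjusted permutation p = 0.0760, 0.105 and 0.119), and for Vip, Cort and Gal -0.04, -0.06 and -0.34. With the 50th percentile it was 0.72 for Sst, 0.45 for Tac1 and 0.39 for Adcyap1 (adjusted permutation p = 0.0704, 0.371 and 0.405). Its part in the relation between the peptides was not tested.

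Vip stood with Cck (r = 0.66, permutation p = 0.0303, adjusted p = 0.127) and less with Sst (r = 0.35, permutation p = 0.291). As deviations from each group's mean, r of Vip was 0.54 with Cck and 0.09 with Sst. With Adcyap1 it was 0.58, or 0.30 as such deviations. The values of Vip depended on single rats. Without heroin replicate 6, the dimmest array, Vip reached r = 0.79 with Sst, 0.81 with Cck and 0.83 with Adcyap1. In that setting 6 of 21 pairs had an adjusted p under 0.05, and the median r of all probe pairs was 0.25. Without saline replicate 3, r of Vip was 0.10 with Sst, 0.50 with Cck and 0.45 with Adcyap1, the lowest with any rat left out. Quantile normalization left r = 0.31 between Vip and Cck. Cort and Gal paired with each other (r = 0.65, permutation p = 0.0293, adjusted p = 0.127; rho = 0.67; 0.64 after quantile normalization), but r was 0.40 without saline replicate 5 and heroin replicate 6, which hold the highest Cort levels. Sst and Cort, whose probes share 17 bases, had r = -0.04 (permutation p = 0.908) and rho = 0.01. That r also depended on single rats, and was 0.46 without saline replicate 3 and heroin replicate 6. With each rat left out it ran from -0.19 to 0.37, highest without heroin replicate 6.

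**Figure D4:**
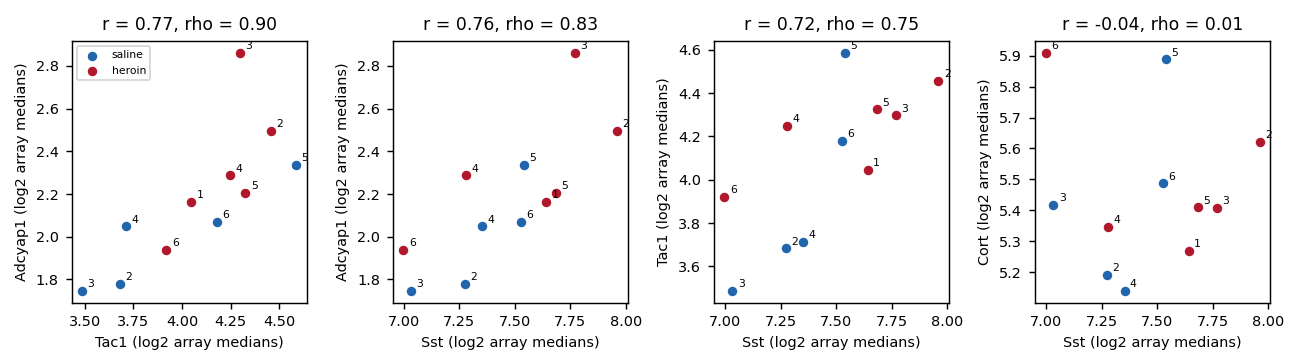
Log2 levels of 2 peptide genes per panel in each rat (saline blue, heroin red, numbers are replicate numbers). The points of Tac1 and Adcyap1 run from saline replicate 3 upwards. Those of both with Sst run upwards from saline replicate 3 and heroin replicate 6, the lowest for Sst. Those of Sst and Cort have r = -0.04 over all 11 rats, and 0.46 without saline replicate 3 and heroin replicate 6.

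By the measure of likeness over 11 rats, the genes outside the set closest to Sst were Fhl2 (r = 0.96), Osbpl2 (0.93) and Pyp (0.92). For Vip they were Rbm34 (0.97), Eif4a1 (0.97) and Clcn6 (0.96), and for Cck Nol4 (0.98), Hpcal1 (0.94) and Sfxn1 (0.94). Tac1 was closest to Lrrn3 (0.97), Plagl2 (0.95) and Robo2 (0.94), and Adcyap1 to Sesn1 (0.96), Stno (0.95) and Tmem39a (0.95). Cort was closest to Gpatc3, Prrx2 and Bat4 (0.88 each), and Gal to RT1-Da (0.87), Tcf19 (0.81) and Tradd (0.81). These are the highest 3 of 8539 values for each member, so their size is a description. Quantile normalization left r between 0.37 and 0.95 for the same 21 pairs. It was 0.79, 0.56 and 0.70 for the genes named with Vip, and 0.37, 0.64 and 0.87 for those named with Cort.

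Receptors of the peptides had probes for all 19 genes listed, and 13 were detected on all arrays. None was past both thresholds in either direction, and their median change of 0.20 was near the 0.18 of all probes. Somatostatin and cortistatin share the Sstr receptors, of which Sstr1 was at 15.7 ± 1.95 array medians in the 6 heroin rats and 12.4 ± 3.09 in the 5 saline rats (SD). Its log2 difference was 0.37 (limma adjusted p = 0.263, exact permutation p = 0.0498), or 0.13 after quantile normalization. Those of Sstr2, Sstr3 and Sstr4 were 0.35, 0.09 and -0.04, or 0.13, -0.15 and -0.09 after quantile normalization, so the sign for Sstr3 turned. Vipr2, which binds VIP and PACAP, had a log2 difference of 0.15, or 0.05 after quantile normalization. The receptor specific to PACAP, Adcyap1r1, had -0.42 (limma adjusted p = 0.286, exact permutation p = 0.113), or -0.52 after quantile normalization. Cckbr, the main cholecystokinin receptor of the brain, had 0.38 (limma adjusted p = 0.264, exact permutation p = 0.0649), or 0.14 after quantile normalization. For the tachykinin receptors Tacr1, Tacr2 and Tacr3 the log2 differences were 0.09, 0.24 and 0.22, and after quantile normalization 0.05, 0.37 and -0.0089. Ntsr2 and Sort1, which bind neurotensin, had 0.44 and 0.20, against 0.19 and -0.0052 after quantile normalization. The galanin receptor Galr2 had -0.21, or -0.18 after quantile normalization. Sstr5, Vipr1, Cckar, Ntsr1, Galr1 and Galr3 were not detected on all arrays.

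Peptide processing and dense-core vesicle genes had probes for 13 of 16 listed, and all 13 were tested. Their median change was 0.35, and 0.13 after quantile normalization, against 0.18 and 0.01 for all tested probes. Scg2, the granin secretogranin 2, was the 1 gene past both thresholds. Its level was 12.9 ± 2.17 array medians in the 6 heroin rats and 8.78 ± 1.79 in the 5 saline rats (SD), and the groups overlapped. The log2 difference was 0.56 (limma adjusted p = 0.263, exact permutation p = 0.0152). After quantile normalization it was 0.33, below 1.4-fold. The other 12 were all higher in heroin rats with the 50th percentile, and 11 of them after quantile normalization. Of all tested probes 78.7% and 53.2% were higher in these settings.

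**Figure D5:**
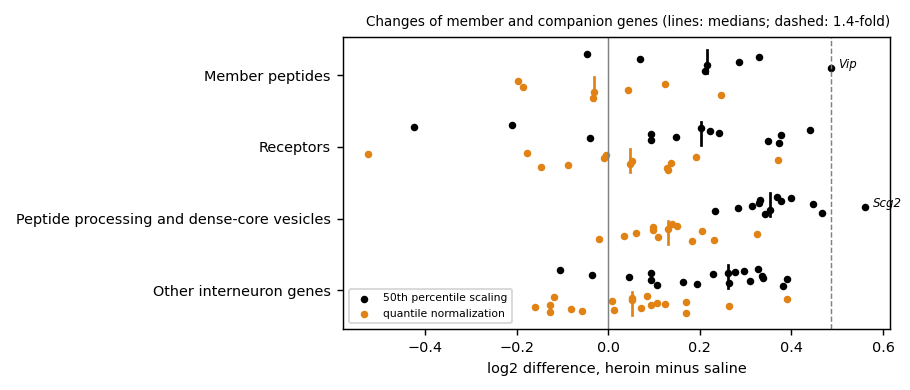
Log2 difference between heroin and saline rats for the 7 tested peptide genes, 13 receptors, 13 processing and vesicle genes and 19 other interneuron genes, each gene 1 point per scaling (black, 50th percentile; orange, quantile normalization), with medians as lines. Vip and Scg2 alone lie beyond the dashed line at 1.4-fold higher, with 50th percentile scaling.

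Other interneuron genes had probes for 21 of 24 listed, of which 19 were detected on all arrays. None passed both thresholds in either direction. Their median change was 0.26, or 0.05 after quantile normalization, against 0.18 and 0.01 for all tested probes. Npy, another peptide of somatostatin cells, had a log2 difference of 0.09, and of -0.16 after quantile normalization. Among the markers of interneurons the summed level of Gad1, Gad2, Slc32a1 and Pvalb was 95.8 to 116.7 array medians in heroin and 74.995 to 114.9 in saline rats, and Lhx6 was detected on 5 arrays. Both tested pyramidal markers were detected on all arrays, at 20.4 to 47.3 summed in heroin and 16.5 to 33.7 in saline rats. Striatal markers could bear on Tac1, which striatal neurons also make: 5 of 8 were tested, their sum was 19.8 to 28.0 in heroin and 17.3 to 37.3 in saline rats, and Drd2 was not detected on all arrays. Of the markers of hypothalamus and septum 4 of 6 were tested, summing to 5.07 to 8.03 in heroin and 5.03 to 8.05 in saline rats, with Oxt and Trh not detected on all. Astrocyte, microglia, oligodendrocyte, endothelial, choroid plexus and blood markers had 0 genes past both thresholds, and the ranges of their sums overlapped between the groups. Their part in the peptide values was not tested.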

How the data were processed

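RNA of the medial prefrontal cortex of 11 rats was measured on single-colour Agilent arrays. The authors deposited, per spot, a signal intensity corrected for background by Feature Extraction (version 9.5.1.1 in the headers), with no scaling between arrays, and a table in which each probe is a ratio, floored at 5, divided by the array's 50th percentile and by the gene's median. Its log2 values, centred per probe, lay within 0.02 of those computed here in 99.9% of cases. Per the file headers, spots also carry detection and outlier marks, which were used as given.

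Here, marked and control spots were left out, spots of a probe averaged, values below 5 set to 5, arrays divided by their 50th percentile and log2 taken. Tests covered the 25555 probes detected (at least 0.5 of spots well above background) on all arrays and usable on 2 or more per group. Groups were taken from the sample titles and compared by limma (version 3.58.1, R 4.3.3), whose fit was tested on simulated data, and by exact permutation over the 462 divisions of the rats. Correlations used 100000 permutations. A gene's probe is its brightest. Where nothing states separate litters, p-values measure the spread between these rats. Arrays give no read depth, and their number limits the precision.

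The members, the lists and the rules were chosen with earlier results of these data known. Named were all members, their receptors, companion genes past both thresholds and the 3 genes most like each member. Array names ending in _predicted or _mapped were read without that ending. Alternatives were other scalings, background corrections, detection filters, tests, probe averaging, a replicate block and each rat left out. The relation of members to the array's median signal was added after the data were seen. Replicate numbers pair arrays by scan time, not by a stated animal match: deviations of same-numbered arrays correlated at 0.38, -0.13, 0.35, 0.02 and -0.24, so numbers were not taken as pairs.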

Additional observations from a re-analysis of the deposited data

How the results depend on the processing

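The number of peptide genes past both thresholds, 1, was 0 after quantile normalization, with the 75th percentile, the authors' relative values or marked spots kept, and with normexp as background correction, and 0 to 1 with each rat left out. For Vip the authors' relative values, marked spots and normexp each gave a log2 change of 0.48, just under 1.4-fold, and no alternative reversed it. With the replicate block, which is the same fit as a block of the shared scan, the number of genes was 1. Scaling turned the sign of Sst (-0.0075 with the 75th percentile, -0.034 after quantile normalization), Cck (-0.0033 and -0.032) and Cort (-0.15 and -0.19). With single rats left out Cort ran from -0.014 to 0.19 and Gal from -0.18 to 0.077. Pairs of peptides with an adjusted p under 0.05 numbered 0, but 9 with normexp, 2 by Spearman's rank correlation and 0 to 6 with each rat left out. The median r of the 21 pairs, 0.48, was 0.14 with the 75th percentile, 0.28 after quantile normalization, 0.33 as deviations from group means and 0.60 with normexp, and 0.35 to 0.57 with each rat left out. The median change of the 7 genes, 0.21, was -0.0033 with the 75th percentile, -0.032 after quantile normalization and 0.18 with normexp, and 0.15 to 0.32 with each rat left out. Over all probes 694 were past both thresholds, against 457 after quantile normalization and 126 with normexp (96.8% higher). Without a detection filter the number was 1559 (30.5% higher), and with detection in 1 group 1066 (43.8% higher). It was 309 with the methods' t-test. With a rat left out it ran from 342 (without saline replicate 2) to 2352 (without saline replicate 5). Correlations of deviations from slide means were not run, since the slide of each array is not stated in the files and the shared scans would leave 5 differences. Signal over background limits Nts.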

Other observations

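Pcsk2, a convertase that cuts peptide precursors, was noticed after its values were seen. Its level was 15.7 to 21.6 array medians in heroin rats and 11.3 to 14.2 in saline rats, with no overlap (exact permutation test, two-sided, p = 0.00216). That p is the smallest the test can give here, and 1.67% of all tested probes had every heroin rat above every saline rat. The log2 change of 0.47 was below 1.4-fold, its limma adjusted p was 0.263, and it was 0.23 after quantile normalization. In the list of peptide processing and dense-core vesicle genes 10 of 13 had an unadjusted limma p under 0.05, against 4729 of 25555 probes. After quantile normalization 1 of 13 did, against 1971 probes, and with the replicate block 4 of 13, against 2709 probes. Crh, the stress peptide of some interneurons, was also looked at after the fact, with 2.57 ± 0.27 (SD, n = 6) and 1.98 ± 0.37 (SD, n = 5) array medians and a log2 change of 0.39, or 0.26 after quantile normalization, and an adjusted limma p of 0.263.

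No rat stood far from the rest of its group by Dixon's gap in the 18 sets of values of the 9 tested member probes.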
